A study of Mus musculus with 39 samples.

Results

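Hbegf and Cyr61, which encode 2 secreted growth signals of the epithelium, were followed through 39 single cells of adult mouse liver. They were taken by symbol from the 10061 genes of the deposited table, where each is represented by 1 RefSeq transcript. The genes had been picked because both were high in duct-like cells in an earlier reading of the same table, so their difference between cell groups is a description and was not tested. The cells were sorted as GFP-positive from mice that carried Krt19CreERT, a tamoxifen-dependent Cre recombinase driven by the duct keratin gene Krt19, together with the Rosa26CAG-EGFP reporter. By this design a labelled cell had Krt19-driven Cre itself or descends from a cell that had. Whether this holds for each of the 39 cells was not tested. All 39 cells share this genotype and form 1 group, and the labels name no animal, treatment, time, plate or untreated control. Cells are not replicates, so no p-value or standard error is given.

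HB-EGF, the product of Hbegf, is made as a membrane-anchored precursor of the EGF family. Metalloproteinases of the ADAM family release it, and the soluble factor binds the receptors EGFR and ErbB4. CYR61, also named CCN1, is a matrix-associated protein of the CCN family that binds integrins and heparan sulfate proteoglycans, and its gene is a widely used readout of the co-activator YAP with TEAD factors. Both genes are also known as immediate early genes, switched on within a short time by growth factors, stretch or stress. In the liver, EGFR ligands act on hepatocytes and duct cells, and CCN1 is known from bile duct repair and from fibrosis.

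Values were back-calculated from the deposited log2 scale and are called CPM, a unit inferred from the values themselves. How the authors scaled the cells is not given in the sources used here. The summed CPM of a cell ran from 351255 to 3128330 over the 39 cells, so the cells do not share a common sum. The worth of 1 read could be read from the repeated low values of 37 cells, in which 1 CPM stood for a median of 12.0 reads (range 3.67 to 41.5). Hbegf and Cyr61 values fell on whole reads almost throughout. Of the 13 cells with Hbegf above 0 but under 1000 reads, 12 lay within 0.05 reads of a whole number, and all 7 such cells did for Cyr61. Levels of the 2 genes are not compared with each other, because CPM takes no account of transcript length. A value of 0 is reported as listed at 0, since 36 cells also had at least 1 of 12 housekeeping genes at 0. A 0 allows up to 3 reads, which is 0.0723 to 0.818 CPM for Hbegf in 8 such cells of known depth and 0.148 to 0.818 CPM for Cyr61 in 14.

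The promoter of Cyr61 is shown with the motifs found in it, of which TEAD is the 1 whose target genes are described further on. RefSeq lists the gene as Ccn1 on the minus strand of chromosome 3. The 250 bases before its start, chr3:145649986-145650235 in GRCm38.p6, are given 5′ to 3′ along the gene, with the motifs found in capitals.
Cyr61: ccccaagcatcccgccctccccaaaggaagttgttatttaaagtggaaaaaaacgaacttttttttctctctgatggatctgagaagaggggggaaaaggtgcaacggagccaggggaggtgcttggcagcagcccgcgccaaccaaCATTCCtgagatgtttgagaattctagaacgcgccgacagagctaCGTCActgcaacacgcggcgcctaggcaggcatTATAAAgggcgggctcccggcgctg
A TEAD motif, CATTCC, lies 103 to 98 bases before the start. It occurs on either strand in 12.6% of the 32851 RefSeq promoter windows of this length, which include several starts for some genes. A cyclic AMP response element core, TGACG, lies on the reverse strand, where it reads CGTCA here, 58 to 54 bases before the start and is found in 17.8% of windows. A TATA motif, TATAAA, lies 25 to 20 bases before the start and is found in 12.4%. The AP-1 motif TGANTCA (6.75% of windows) and the CArG box of serum response factor (1.47%) have no match in these 250 bases. The matches do not overlap, and they are matches of letters in a reference sequence, with no binding measured here.

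Cells were grouped by 107 marker genes of 10 cell types, none of which is Hbegf or Cyr61. The planned rule gave 2 clusters, of which the larger mixed several cell types, so 4 clusters of the same tree were used, a choice made after seeing the data. They held 22 duct-like cells, 6 hepatocyte-like cells, 7 cells with mesothelial and fibroblast markers, and 4 cells with blood cell markers. The last 2 groups are described by their markers and given no cell type name. The duct-like cells had 3 to 10 of 21 measured cholangiocyte markers at 100 CPM (median 7), with Spp1, encoding osteopontin, at a median of 14322 CPM. Krt19 itself had a median of 123 CPM in them, with a highest value of 20676 CPM and 11 of 22 cells at 100 CPM. It was listed at 0 in duct-like cells 15, 16, 17, 26, 30 and 31 and in the 6 hepatocyte-like cells. It was also present in the cells with mesothelial and fibroblast markers, with a median of 127 CPM and 4 of 7 cells at 100 CPM. Epcam, an adhesion protein of duct epithelium, reached 100 CPM in 6 duct-like cells, and Sox9, a duct transcription factor, in 8. Alb, encoding albumin, reached 100 CPM in the 6 hepatocyte-like cells, in 13 duct-like cells (median of the 22, 1506 CPM) and in 1 cell with blood cell markers. Apoa1, a hepatocyte apolipoprotein, reached 100 CPM in the 6 hepatocyte-like cells and nowhere else, and the mesothelial gene Upk3b in 5 of the 7 cells of the third group. The matrix gene Dcn did so in all 7 and in 2 hepatocyte-like cells, and Msln, of mesothelium, in 3 of the 7 and 3 duct-like cells. The neutrophil granule genes Elane and Mpo did so in 3 of the 4 cells with blood cell markers and in no others. Libraries of the 6 hepatocyte-like cells stood apart in Rn45s, the ribosomal RNA precursor, with 0.383% to 1.22% of the summed CPM against 8.42% to 31.2% in the duct-like cells, and the differences between groups, the gene lists, the correlation of the pair and the genes most like each signal were repeated without them.

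Hbegf was high in most duct-like cells and near 0 in all others. In the 22 duct-like cells it ranged from 0 to 5653 CPM with a median of 426 CPM, and 16 of them reached 100 CPM (72.7%, exact 95% interval 49.8% to 89.3%). None of the 17 other cells reached 100 CPM, which allows a share of up to 19.5%. These limits describe the counting of cells in this 1 labelled group and say nothing of other animals. The groups overlapped at the low end, because cell 24 of the duct-like group was listed at 0. Across all cells the value nearest above 100 CPM was 111 CPM in cell 30 and the nearest below was 44.6 CPM in cell 23, so the call of cell 30 rests on a value near that level. The highest value, in cell 21, rested on 34093 reads. Of the 29 cells above 0, 8 lay under 1 CPM, and single reads account for the values of cells 3 and 32.

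Outside the duct-like group Hbegf was at trace level. In the hepatocyte-like cells it was listed at 0 in 5 of 6, and cell 3 had 0.243 CPM, which is 1 read. The 7 cells with mesothelial and fibroblast markers ranged from 0 to 0.642 CPM with a median of 0.272 CPM. The 4 cells with blood cell markers had 0, 0.0411, 0.165 and 4.02 CPM. The last of these is cell 33, with 32 reads, and it is the 1 cell outside the duct-like group above 1 CPM. The ranges of the 3 groups overlap, so no order among them can be read.

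Cyr61 was also high in most duct-like cells and under 100 CPM in all others. It ranged from 0 to 2617 CPM in the 22 duct-like cells with a median of 292 CPM, and 15 reached 100 CPM (68.2%, interval 45.1% to 86.1%). None of the 17 others did, again allowing up to 19.5%. The value nearest above 100 CPM was 190 CPM in cell 16 and the nearest below was 87.3 CPM in cell 23. Among cells with mesothelial and fibroblast markers, cells 5, 6 and 10 had 28.3, 7.61 and 30.9 CPM, or 438, 316 and 682 reads, and the other 4 were listed at 0. Hepatocyte-like cells 1 and 38 had 6.08 and 8.90 CPM and the other 4 were listed at 0. Cells with blood cell markers were at 0 in 3 of 4, with 0.123 CPM in cell 32. At 1 CPM or more, Cyr61 was seen in 5 of the 17 cells outside the duct-like group and Hbegf in 1, while at any value above 0 it was 6 for Cyr61 and 8 for Hbegf.

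**Figure D1:**
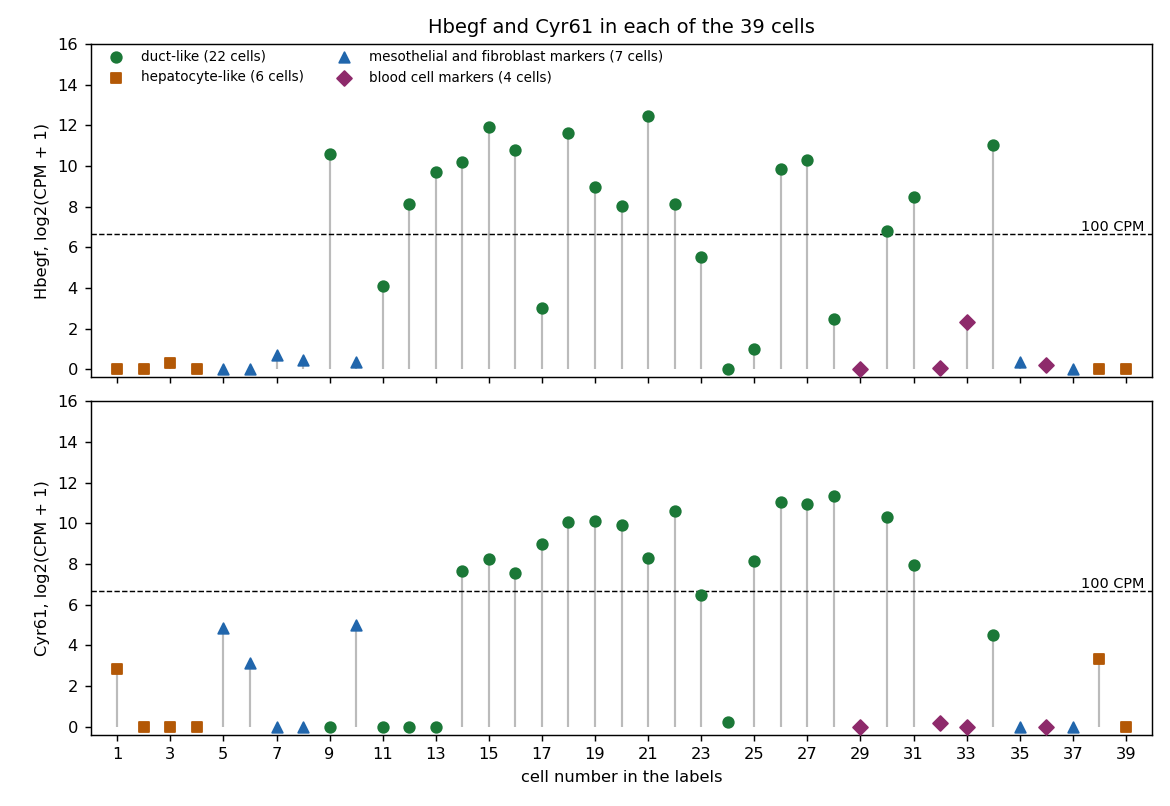
Hbegf (top) and Cyr61 (bottom) as log2(CPM + 1) in each cell, ordered by the cell number in the labels, with colour and shape for the 4 marker groups and a dashed line at 100 CPM. The 16 cells over the line for Hbegf and the 15 for Cyr61 are all duct-like; cells 9, 11, 12 and 13 lie at 0 for Cyr61.

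On the scale of log2(CPM + 1), Hbegf averaged 7.86 (SD 3.65 over 22 cells) in the duct-like cells and 0.28 (SD 0.57 over 17 cells) in the others, a difference of 7.58. Cyr61 averaged 6.93 (SD 4.14) and 1.13 (SD 1.86), a difference of 5.79. Without the 6 hepatocyte-like cells the differences were 7.45 and 5.73. Ranked by this difference among the 10061 genes, Hbegf was number 4 and Cyr61 number 11. These differences are what the genes were picked for, so nothing further is read from them.

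Few genes shared the pattern of reaching 100 CPM in at least 50% of the duct-like cells and in no other cell. It was found for 8 of 10061 genes (0.0795%), and Hbegf and Cyr61 are 2 of them. Since they were picked for high values in duct-like cells, their place there is no separate finding. The other 6 were Cdh1, encoding E-cadherin, in 16 cells, Sorbs2, an adaptor of the actin cytoskeleton, in 14, Pamr1 and Tstd1 in 12 each, and Ank3, encoding the membrane scaffold ankyrin-G, and the tight junction gene Cldn4 in 11 each. Cldn4 is on the cholangiocyte marker list that helped to form the groups. Without the hepatocyte-like cells, 13 genes had the pattern (0.129%).

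Within the duct-like group the 2 signals showed little common order. Both were at or over 100 CPM in 12 of 22 cells (54.5%, interval 32.2% to 75.6%), Hbegf without Cyr61 in 4, Cyr61 without Hbegf in 3, and neither in 3. Spearman's rho of Hbegf with Cyr61 was 0.52 over all 39 cells (Pearson's r of log2 values 0.59) and 0.01 over the 22 duct-like cells (r = 0.14). Both are descriptions over cells of 1 labelled group that share the authors' scaling. By rank, 63 other genes were more like Hbegf than Cyr61 was, and 75 were more like Cyr61 than Hbegf was, of 4811 genes ranked.

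Several duct-like cells held 1 signal with little or none of the other. Cell 9 had 1516 CPM of Hbegf, cell 13 had 837 CPM, cell 12 had 276 CPM and cell 11 had 15.9 CPM, and Cyr61 was listed at 0 in all 4. Their depth allows 0.152 to 0.368 CPM of Cyr61 at most. Cell 34 had 2113 CPM of Hbegf, from 9414 reads, beside 22.0 CPM of Cyr61. In the opposite direction, cell 28 had the highest Cyr61 value, 2617 CPM, with 4.57 CPM of Hbegf, or 40 reads. Cell 17 had 500 CPM of Cyr61 with 7.22 CPM of Hbegf, and cell 25 had 285 CPM with 0.968 CPM. Cell 24, which held the highest Krt19, had 0.172 CPM of Cyr61, which is 1 read, and Hbegf was listed at 0.

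Cells with both signals held them in varied proportions. Cell 21 had the highest Hbegf, 5653 CPM, with 308 CPM of Cyr61, and cells 15 and 16 had 3803 and 1762 CPM of Hbegf with 298 and 190 CPM of Cyr61. Cell 14 had 1165 and 200 CPM in the same order. Cell 22 had 1541 CPM of Cyr61 with 277 CPM of Hbegf, and cell 30 had 1257 and 111 CPM in that order. Cells 18, 26 and 27 were high in both, with 3180, 907 and 1246 CPM of Hbegf and 1086, 2096 and 2008 CPM of Cyr61. Cells 19, 20 and 31 had 491, 257 and 360 CPM of Hbegf and 1103, 968 and 250 CPM of Cyr61. The sum of each gene over all cells rested on few of them. For Hbegf 61.4% lay in 4 cells (21, 15, 18 and 34), and for Cyr61 55.5% lay in 4 (28, 26, 27 and 22).

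**Figure D2:**
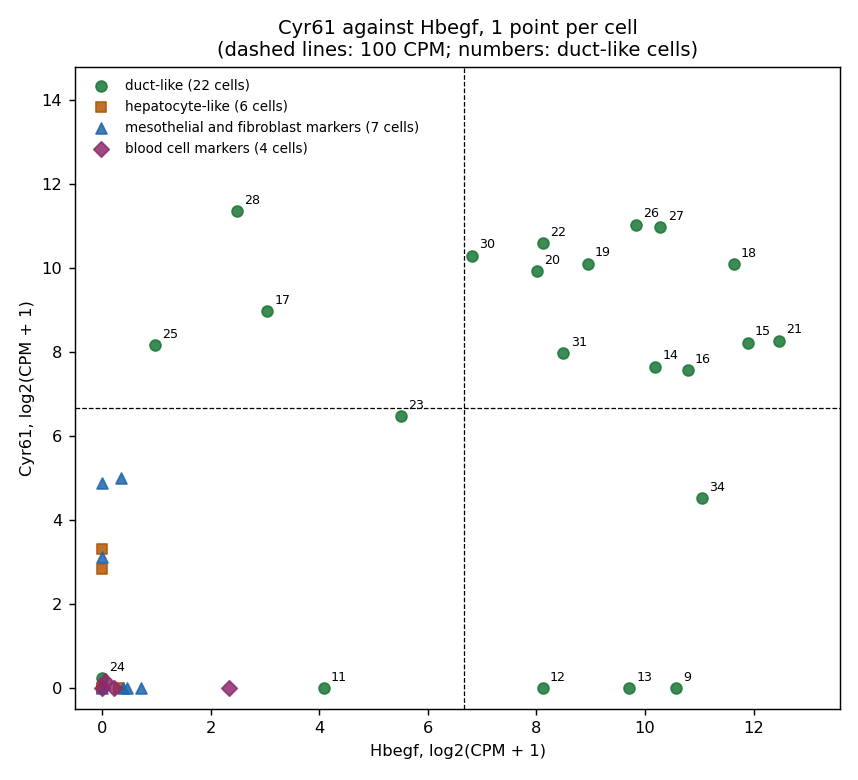
Cyr61 against Hbegf, both as log2(CPM + 1), 1 point per cell, with numbers on the 22 duct-like cells and dashed lines at 100 CPM. The duct-like cells fill the upper right (12 cells), the lower right (4 cells) and the upper left (3 cells), and the remaining 3 are cell 24 close to the origin, cell 11 at 0 for Cyr61, and cell 23 under both lines.

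The 4 cells with Hbegf where Cyr61 was listed at 0, numbers 9, 11, 12 and 13, also parted from the other 18 duct-like cells when the markers were clustered by average linkage into 6 clusters, an alternative added after seeing the data. Hbegf had a median of 556 CPM in the 4 and 426 CPM in the 18, with ranges that overlap. Cyr61 ranged from 0.172 to 2617 CPM in the 18. The share of Rn45s in the summed CPM was 21.1% to 31.2% in the 4 and 8.42% to 21.7% in the 18, and over the 22 cells its rho with Cyr61 was -0.32 and with Hbegf 0.02. The part of this share in the Cyr61 pattern was not tested. Alb was listed at 0 in these 4 cells and in cell 34. Cells 27, 28, 30 and 31, with 250 to 2617 CPM of Cyr61, had 11 to 14 of 32 hepatocyte markers at 100 CPM, where cells 9, 11, 12 and 13 had 1 or 2. Cells 18, 19, 20 and 26, with 968 to 2096 CPM of Cyr61, also had 1 or 2. Of the 21 cholangiocyte markers, cells 27, 28, 30 and 31 had 5, 4, 4 and 3 at 100 CPM. In these cells Epcam was listed at 0 and Krt19 was at most 12.1 CPM, while Spp1 was 10921 to 45368 CPM. The name duct-like is thus less secure for them. Over the 22 duct-like cells, rho with the number of hepatocyte markers at 100 CPM was 0.51 for Cyr61 and 0.03 for Hbegf. With the number of cholangiocyte markers it was -0.47 for Cyr61 and -0.00 for Hbegf. The summed hepatocyte markers ran from 20.9 to 43546 CPM in the duct-like cells and from 61567 to 229533 CPM in the hepatocyte-like cells, with 0 to 14 (median 2.5) and 27 to 31 of the markers at 100 CPM. Of the 32 hepatocyte markers, only Apoc3, G6pc and Hpd were listed at 0 in all 22 duct-like cells. The part of hepatocyte transcripts in the Cyr61 pattern was not tested. The number of genes detected had a rho of 0.16 with Cyr61 and -0.26 with Hbegf.

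Other EGF family ligands and the ErbB receptors reached 100 CPM in few of these cells. Of 10 further EGF family ligands, Tgfa and Btc were measured. Tgfa reached 100 CPM in 1 duct-like and 2 other cells, and Btc in 1 and 0. At 1 CPM or more, Tgfa was seen in 4 duct-like and 6 other cells and Btc in 4 and 2. The receptors were as rare at 100 CPM. Egfr was at 100 CPM in 2 duct-like and 3 other cells, Erbb3 in 1 and 0, and Erbb2 in none, with a highest value of 82.4 CPM. At 1 CPM or more, Egfr was seen in 7 duct-like and 11 other cells, Erbb3 in 2 and 2, and Erbb2 in 5 and 2. The mean log2 value of Egfr differed by -1.44, duct-like minus other cells, and by -0.72 without the hepatocyte-like cells. Genes not in the table, among them Areg, Ereg, Egf and Erbb4, are not analysed here.

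Genes that process or accompany HB-EGF were mixed. Of 12 measured, 3 were at least 1 log2 unit higher in the duct-like cells and none was lower by that much, where 10.2% of all genes were higher and 25.6% lower. The median difference was -0.01, beside -0.27 over all genes. Without the hepatocyte-like cells 3 were higher and 4 lower (9.65% and 27.9% of all genes), with a median of -0.42 beside -0.25. The 3 of the first count were Cd9, a tetraspanin that binds the HB-EGF precursor, at 100 CPM in 11 duct-like and 4 other cells, Itga3, an integrin chain, in 7 and 2, and Rhbdf1, a rhomboid-like protein that escorts the sheddase ADAM17, in 4 and 0. Cd81 reached 100 CPM in 14 and 11 cells, Bag1 in 4 and 6. The sheddases were seen in fewer cells, with Adam10 in 6 and 5 and Adam17 in 2 and 2.

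Of 15 measured genes of EGFR signalling and its feedback, 7 were higher by 1 log2 unit (10.2% of all genes) and 3 lower (25.6%), with a median difference of 0.19 beside -0.27 over all genes. The counts were again 7 and 3 without the hepatocyte-like cells, with a median of 0.43 beside -0.25 over all genes. With each cell rescaled to a common sum, the median was -0.02 beside -0.37 over all genes. Dusp1, a phosphatase of MAP kinases, was at 100 CPM in 18 duct-like and 11 other cells. Errfi1, a feedback inhibitor of EGFR, was in 11 and 6, Dusp6, a phosphatase of ERK, in 11 and 3, Ier3 in 8 and 3, and Phlda1 in 5 and 2. Within the duct-like cells 6 of these genes could be ranked. Their rho with Hbegf ran from -0.48 for Phlda1 to 0.25 for Errfi1 with a median of -0.01, and with Cyr61 from -0.22 for Spry2 to 0.51 for Ier3 with a median of 0.05. The medians over all genes were -0.02 and 0.05.

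**Figure D3:**
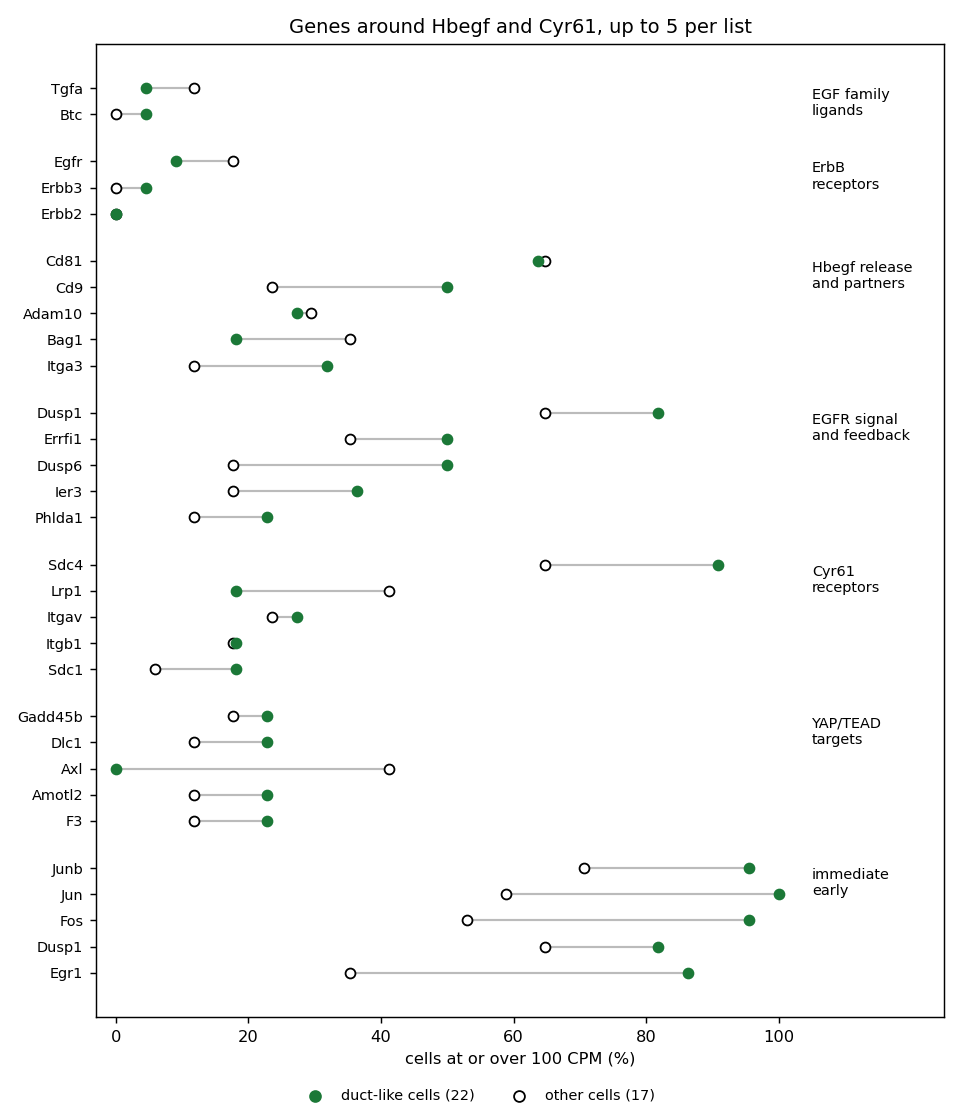
Share of cells at or over 100 CPM in the 22 duct-like cells (filled) and the 17 other cells (open), for up to 5 genes of each list, taken by the number of cells at 100 CPM. EGF family ligands and ErbB receptors lie at the low end, while Jun reached 100 CPM in all 22 duct-like cells and Axl in none of them.

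On the side of Cyr61, the 1 other CCN gene measured was Ctgf, also a YAP and TEAD target. It was at 100 CPM in 5 duct-like cells and in no other, and at 1 CPM in 11 and 1. Of 9 measured receptors, Itgav and Sdc4 were higher by 1 log2 unit (10.2% of all genes) and Lrp1 was lower (25.6%). Without the hepatocyte-like cells 3 were higher and 3 lower (9.65% and 27.9%), and the difference of Itgav went from 1.11 to -0.12. The median of the 9 went from 0.31 to -0.12, beside -0.27 and -0.25 over all genes. Sdc4, a heparan sulfate proteoglycan, reached 100 CPM in 20 duct-like and 11 other cells, Lrp1, an endocytic receptor, in 4 and 7, Itgav, the integrin alpha v chain, in 6 and 4, Itgb1 in 4 and 3, and Sdc1 in 4 and 1.

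YAP and TEAD targets were split. Of 20 measured, 7 were higher by 1 log2 unit in the duct-like cells (10.2% of all genes) and 3 lower (25.6%), with a median difference of 0.75 beside -0.27 over all genes. Without the hepatocyte-like cells 5 were higher and 5 lower (9.65% and 27.9%), with a median of 0.27 beside -0.25 over all genes. Ankrd1, a muscle ankyrin repeat protein much used as a YAP readout, was at 100 CPM in 5 duct-like cells and none outside. Amotl2, a junction protein that restrains YAP, was in 5 and 2 cells, and Gadd45b in 5 and 3, Dlc1 in 5 and 2 and F3, encoding tissue factor, in 5 and 2. Axl, a receptor tyrosine kinase, went the other way, with 0 duct-like and 7 other cells. Within the duct-like cells 12 of these genes could be ranked, and their median rho was 0.32 with Cyr61 and -0.01 with Hbegf, beside 0.05 and -0.02 over all 2918 genes. With Cyr61 the 12 ran from -0.43 for Rbms3 to 0.60 for Dlc1, and with Hbegf from -0.33 for Amotl2 to 0.57 for Ptpn14. Ctgf had a rho of 0.40 with Cyr61 and -0.02 with Hbegf, and Ankrd1 had 0.42 and -0.01. Both of these genes had a median of 1.64 CPM in the duct-like cells and reached 1 CPM in 11 of the 22.

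Of the Hippo pathway itself 13 genes were measured, and 3 were higher by 1 log2 unit (10.2% of all genes) and none lower (25.6%), with 3 and 2 without the hepatocyte-like cells (9.65% and 27.9%). The median difference was 0.13 as deposited, -0.06 without those cells and -0.02 with each cell rescaled. Over all genes these medians were -0.27, -0.25 and -0.37. Wwtr1, encoding the co-activator TAZ, was at 100 CPM in 6 duct-like cells and 1 other, Taok1, an upstream kinase, in 5 and 1, and Tead1 in 3 and 4. Lats2, a kinase that inhibits YAP, was in 2 and 3, and Vgll4 in 3 and 1. Yap1 reached it in none, with a highest value of 81.3 CPM. Of 13 genes of serum response factor and the actin cytoskeleton, 2 were higher (10.2%) and 3 lower (25.6%), with 1 and 7 without the hepatocyte-like cells (9.65% and 27.9%). Their median went from 0.07 to -1.002 without those cells, and was -0.04 with each cell rescaled, beside the same medians over all genes. The 5 of the first count are Srf and its co-activator Mkl2 on the one side and Acta2, Cnn2 and Zyx on the other. Actb was at 100 CPM in all 39 cells, Actg1 in 19 duct-like and 17 others, Vcl in 8 and 6, Tagln2 in 7 and 7 and Tpm4 in 7 and 6. Of the 5 Notch genes measured, 3 were higher by 1 log2 unit (10.2% of all genes) and 1 lower (25.6%), with the same counts without the hepatocyte-like cells. Notch2 was at 100 CPM in 10 and 2 cells, its ligand gene Jag1 in 6 and 0, the target Hes1 in 4 and 0, and Rbpj in 0 and 5, with Maml1 in 1 and 2.

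Of the immediate early genes all 29 were measured. In the duct-like cells 18 were higher by 1 log2 unit (10.2% of all genes), none was lower (25.6%) and 11 differed by less, with a median difference of 2.02 beside -0.27 over all genes. Without the hepatocyte-like cells 13 were higher and 4 lower (9.65% and 27.9%), with a median of 0.82 beside -0.25 over all genes. Jun was at 100 CPM in 22 duct-like and 10 other cells, Junb in 21 and 12, Fos in 21 and 9, Dusp1 in 18 and 11, and Egr1 in 19 and 6. Duct-like cells had 7 to 17 of the 29 genes at 100 CPM (median 14), cells with mesothelial and fibroblast markers 6 to 20 (median 14), cells with blood cell markers 3 to 9, and hepatocyte-like cells 0 or 1. Over the 22 duct-like cells, rho with the number of these genes at 100 CPM was 0.61 for Cyr61 and 0.26 for Hbegf. The median rho of the 21 such genes that could be ranked was 0.20 with Hbegf and 0.29 with Cyr61. Atf3, a stress-induced factor, had a rho of 0.52 with Hbegf and 0.28 with Cyr61, and Egr1 had 0.25 and 0.52. Of the immediate early genes, Dusp1 and Ier3 are also on the EGFR signalling list and Gadd45b on the YAP and TEAD list. Lats2 is on both the YAP and TEAD and the Hippo lists. The counts of these lists therefore share genes.

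The genes most like each signal over all 39 cells had no gene in common. For Hbegf they were Cdh1 (rho 0.76), Spp1 (0.74), Junb (0.73), Atf3 (0.69), Rasd2 (0.68), Zic1 (0.68), Mob3b (0.68), Btg2 (0.67), Jun (0.66) and Fosb (0.65). Of these, 5 are on the immediate early list, which holds 22 of the 4811 genes ranked, and Spp1 is a marker that helped to form the groups. Rasd2 and Zic1 reached no more than 22.6 and 30.6 CPM in any cell. For Cyr61 the list was Bicc1 (0.83), an RNA-binding protein of tubule and duct epithelium, Enc1 (0.82), Sorbs2 (0.78), Lurap1l (0.75), Anxa5 (0.74), Map3k1 (0.72), Ankrd1 (0.72), Itga5 (0.71), the integrin alpha 5 chain, Smad3 (0.70), a mediator of TGF-beta signals, and Cldn4 (0.67). None is on the immediate early list, and Bicc1 and Cldn4 are markers that helped to form the groups. The 2 lists shared no gene, which says little for lists this short. Cdh1 and Spp1 had a rho of 0.64 and 0.63 with Cyr61, close to the 0.67 of Cldn4. All 20 genes had a higher median in the duct-like cells than in the others, so likeness over 39 cells includes the difference between the groups.

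**Figure D4:**
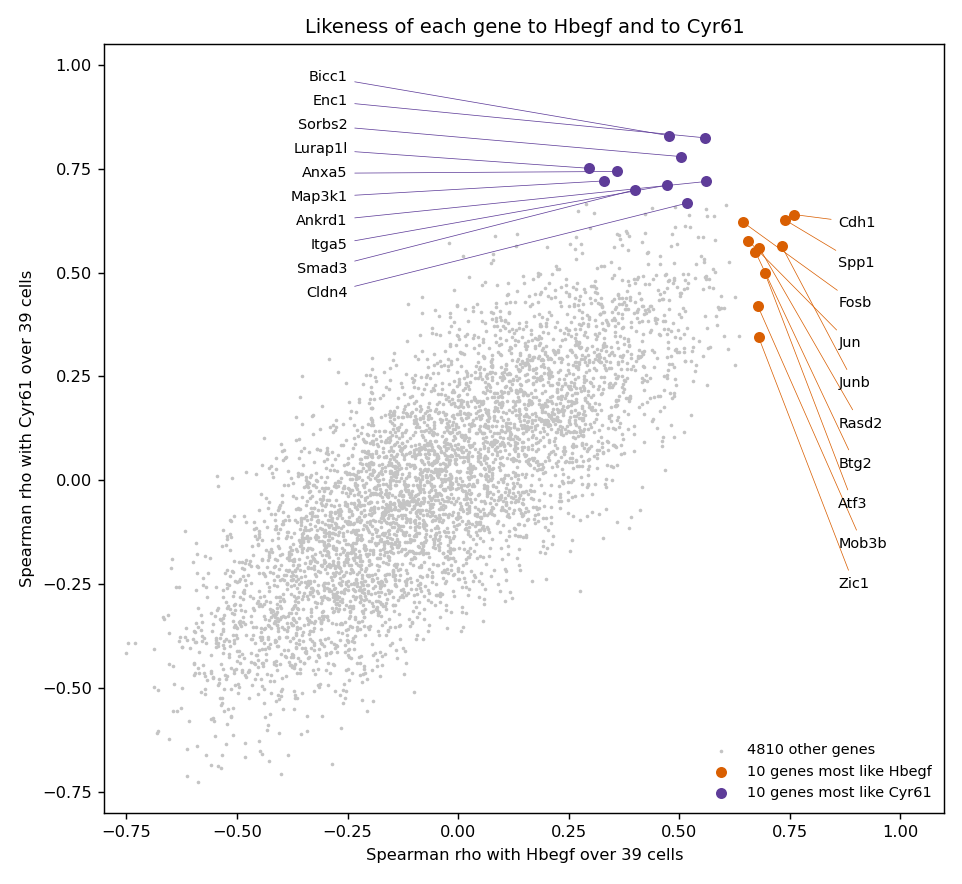
Spearman's rho over 39 cells of each gene with Hbegf (horizontal) and with Cyr61 (vertical), for genes at or over 1 CPM in at least 10 cells, with the 10 genes most like Hbegf in orange and the 10 most like Cyr61 in purple. Cdh1 and Spp1 lie high on both axes, with a rho of 0.64 and 0.63 to Cyr61, while Zic1 and Lurap1l are each like 1 signal and less like the other (0.34 and 0.30).

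Within the 22 duct-like cells the lists changed. The 5 genes most like Hbegf were Sephs2 (rho 0.76), a selenium metabolism enzyme, the olfactory receptor pseudogene Olfr856-ps1 (0.76), the transcription factor gene Nfib (0.61), Zmat3 (0.60) and Helb (0.59). Reads of a pseudogene can belong to near-identical copies, so that value is uncertain. Nfib, which reached 100 CPM in 15 of the 22 cells, was the 1 of them above that level in most. The 5 most like Cyr61 were Map3k1 (0.79), a kinase upstream of JNK, Rnf168 (0.75), Ptp4a1 (0.74), Kdm6b (0.74), a histone demethylase, and Zfp560 (0.74). Map3k1 is on the list over 39 cells too. Cdh1, first for Hbegf over 39 cells, had a rho of 0.10 with it among duct-like cells, and Bicc1, first for Cyr61, had 0.66. With 22 cells and 2917 genes ranked, values of this size are a description only.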

How the data were processed

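RNA of 39 single cells was sequenced, 1 library per cell. Bowtie 0.12.9, eXpress 1.5.1, edgeR without a version and build mm9 are named in the submitters' processing notes, with no settings. The deposited values are on a log2 scale, for 13568 transcripts, scaled by the authors in a way not given in the sources used here. The lowest, -2.58, was shared by all cells and taken as no reads. Linear values are 2 to the power of the deposited value minus 0.167, and their unit, called CPM, was inferred. With each cell rescaled to a common sum, 16 cells reached 100 CPM for Hbegf and 15 for Cyr61, as without rescaling. Leaving out Rn45s, Lars2 and Rorb as well, the counts were 16 and 16. Transcripts were summed per symbol, and no cell was removed.

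The most frequent positive value of a cell was taken as 1 read. In 37 cells 24.1% to 39.6% of values under 60 reads lay within 0.02 reads of a whole multiple, while cells 38 and 39 showed no clear step and their depth is unknown. The labels mention no molecular identifiers and PCR copies are counted as reads, so read limits cover counting error alone. Intervals on shares of cells (exact Clopper-Pearson, 95%) cover the counting of cells alone and not variation between animals, since cells are not replicates.

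Cells were clustered on measured markers by Ward linkage of log2(CPM + 1), with 2 to 6 clusters of at least 3 cells judged by silhouette (0.379 at 2, 0.339 at 4). Likeness was Spearman's rho over genes at 1 CPM in at least 10 of 39 cells, or 8 of 22. Named are the top 10 and top 5 by rho, up to 5 genes per list by the number of cells at 100 CPM, and all measured genes of lists of at most 5. Others, such as genes past 1 log2 unit, Yap1, Adam17 and Ank3, were named after their values were seen. The genes, lists, 100 CPM level and groups were chosen with earlier results of these data known. The ranking was tested on simulated data, with noisy copies of Hbegf planted among genes permuted over cells. Permuting removes the cell groups from the other genes, so the test says nothing of likeness that rests on group differences. Versions were Python 3.11.15, numpy 2.4.6, pandas 2.3.3 and scipy 1.17.1.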

Additional observations from a re-analysis of the deposited data

How the results depend on the processing

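Of 100 alternative values, 78 stayed within the interval, spread or tolerance set for them and 22 did not. None turned the direction of the difference of Hbegf or Cyr61 between groups. For the size of that difference the spread was the SD over duct-like cells, 3.65 for Hbegf and 4.14 for Cyr61. Staying within so wide a spread is a weak check. The number of cells with Hbegf, 16 at 100 CPM, was 29 at any value above 0 and 8 at 1000 CPM. For Cyr61 the 15 cells became 24 above 0, 22 at 1 CPM and 7 at 1000 CPM. Cells with both, 12, became 2 at 1000 CPM. The rho of 0.52 over 39 cells was 0.0074 in the duct-like cells alone, and between 0.46 and 0.52 under the other 5 settings. Within the duct-like cells it became -0.0093 without cells 9, 11, 12 and 13. Genes with the duct-like pattern went from 8 to 2 at 1000 CPM and to 13 without the hepatocyte-like cells. Each of these alternatives asks for a higher or lower level, or uses fewer cells, by its construction. Without the hepatocyte-like cells, genes lower by 1 log2 unit went from 0 to 4 among HB-EGF partners, from 1 to 3 among CYR61 receptors, from 3 to 5 among YAP targets, from 0 to 2 in the Hippo pathway, from 3 to 7 in the serum response factor list and from 0 to 4 among immediate early genes. Higher ones in the serum response factor list went from 2 to 1. Rescaled to a common sum, lower CYR61 receptors were 2 with and without Rn45s, Lars2 and Rorb, and without these 3 transcripts 1 Hippo gene was lower; the cause was not tested. These list alternatives were chosen after seeing the data. Of the 10 genes most like Hbegf, 5 remained without the hepatocyte-like cells. Of those most like Cyr61, 6 remained without these cells and 6 by Pearson's r; the cause was not tested. The mean log2 difference ran from 4.93 to 9.90 for Hbegf and from 3.99 to 7.41 for Cyr61. The lowest were at a pseudocount of 10 for Hbegf and for the 33 against 6 cells of the planned clusters for Cyr61, and the highest at 0.1. Using the transcript with the highest mean changed nothing, since each gene has 1, and average linkage at 4 clusters returned the same counts. No paired analysis was possible because the cells form 1 group. Depth does not limit values at 100 CPM, but with 1 library per cell a transcript not captured cannot be told apart from one not made.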
